A study of Mus musculus with 5 samples.

Results

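The genes described here are 10 genes used to grade how macrophages are activated, measured in mouse melanomas that were treated with RG7112 or with vehicle, all under anti-PD-1. The members were chosen by symbol: Nos2, Ido1 and Il12b as interferon-type genes, Arg1, Mrc1, Cd163, Chil3 and Il10 as genes of alternative activation, and Adgre1 and Aif1 as genes of macrophages in general. Of these 10 genes, 9 had a probe under their own name on the array, out of 19505 named genes, and each of the 9 had 1 probe. Il12b was not analysed here, so the interferon-type group rests on Nos2 and Ido1.

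Wild-type C57BL/6 mice aged 10 weeks were injected under the skin with B16.F10 melanoma cells that carried luciferase and GFP. Every mouse was given anti-PD-1, which blocks an inhibitory receptor of T cells, into the peritoneum on days 1, 4 and 8. In the RG7112 group (3 tumours, replicates 1, 2 and 3) mice also received RG7112, a small molecule that keeps MDM2 from binding p53, by mouth every 2 days for 6 days. Dosing began 2 days after injection. In the vehicle group (2 tumours, replicates 3 and 4) mice received corn oil with 5% DMSO on the same schedule. Tumours were taken on day 13, and each array (Affymetrix Clariom S) holds the RNA of 1 whole tumour from its own mouse, a mixture of melanoma cells and infiltrating immune cells. Both groups had anti-PD-1 and all tumours grew from a single cell line, so the comparison is RG7112 against vehicle within anti-PD-1 treatment of that line.

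Macrophages change their gene programme with the signals around them. Interferon gamma and microbial products drive a classical programme, in which nitric oxide synthase (Nos2) turns arginine into nitric oxide, indoleamine dioxygenase (Ido1) breaks down tryptophan, and interleukin 12 is secreted. Interleukins 4, 13 and 10 drive alternative programmes with arginase (Arg1), which takes the same arginine towards ornithine, the mannose receptor (Mrc1), the haemoglobin scavenger receptor (Cd163), the chitinase-like lectin Chil3 and, for regulatory states, the cytokine interleukin 10.

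The bases before the gene starts were read for 3 members that differ in outcome: Aif1, which had the largest change, Cd163, the only alternative gene whose groups did not overlap, and Chil3, the other promoter with a motif match. Of the 10 members, 5 were found in the RefSeq promoter table (GRCm38.p6): Il12b, Mrc1, Cd163, Chil3 and Aif1. The sequences are the 250 bases before the start, written on the gene's strand, and capitals mark a motif match. Aif1 lies on the minus strand at chr17:35176053-35176302, Cd163 on the plus strand at chr6:124304401-124304650 and Chil3 on the minus strand at chr3:106167565-106167814.
Aif1: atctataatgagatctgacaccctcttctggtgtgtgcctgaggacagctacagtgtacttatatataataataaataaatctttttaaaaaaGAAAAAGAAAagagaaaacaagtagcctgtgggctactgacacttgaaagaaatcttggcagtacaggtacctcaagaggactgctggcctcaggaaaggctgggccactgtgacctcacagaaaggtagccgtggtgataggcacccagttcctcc
Cd163: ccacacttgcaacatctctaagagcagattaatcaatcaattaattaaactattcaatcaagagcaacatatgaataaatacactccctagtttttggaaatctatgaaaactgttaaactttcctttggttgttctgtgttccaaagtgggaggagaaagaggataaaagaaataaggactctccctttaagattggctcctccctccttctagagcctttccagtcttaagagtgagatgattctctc
Chil3: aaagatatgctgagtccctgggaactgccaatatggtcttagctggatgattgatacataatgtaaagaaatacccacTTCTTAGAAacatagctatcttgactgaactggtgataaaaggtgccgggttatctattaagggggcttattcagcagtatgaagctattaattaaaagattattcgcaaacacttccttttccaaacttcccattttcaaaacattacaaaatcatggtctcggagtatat
The motifs searched on both strands were GAAA and GAAA parted by 2 bases of any kind (core of the interferon-stimulated response element), TTCNNNGAA (gamma-activated site), TTC and GAA parted by 4 bases (the spacing preferred by STAT6), GGGA and TTCC parted by 2 bases (NF-kB type) and GAGGAAGT (PU.1 type). Aif1 held GAAAAAGAAA, a match to the first motif, 157 bases before its start, in a stretch rich in A. Chil3 held TTCTTAGAA, a match to the second, 172 bases before its start. Over the 32841 promoters of the table, 2.98% held the first motif, 7.02% the second, 5.85% the third, 1.21% the fourth and 2.44% the fifth. The windows of Cd163, Mrc1 and Il12b held none of these letters, and no matches overlapped.

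Signals are log2 values normalized by RMA, so a difference of 1 is a doubling of signal. Levels of different genes come from different probes, so means and balances over genes are compared only between tumours. The 5 arrays had medians from 5.76 to 5.81. The comparison was fitted with limma over all 22203 probes, and a gene was called at a Benjamini-Hochberg adjusted p under 0.05. Of all probes, 1.42% were called higher in RG7112 tumours (315 probes) and 0.0315% lower (7 probes), and the median change was -0.03. Of the 9 measured members, 3 were called higher (Aif1, Adgre1 and Nos2) and 0 lower. The members and lists were chosen with earlier results of these data known, so these counts describe the genes and are no independent evidence. Without vehicle replicate 4, 65 probes were called in all, and Aif1 alone of the members.

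The general macrophage genes gave the largest changes among the members. Aif1, an actin-binding protein of macrophages and microglia, was at 7.09, 6.69 and 7.38 in RG7112 replicates 1, 2 and 3, against 4.57 and 4.41 in vehicle replicates 3 and 4. The 3 RG7112 tumours lay far above both vehicle tumours. A separation in that direction, of any size, was seen in 10.8% of all probes. Its mean was 7.06 ± 0.35 (SD, n = 3) with RG7112 and 4.49 ± 0.11 (SD, n = 2) with vehicle, a log2 change of 2.57 ± 0.20 (SE), which is 5.92-fold (95% interval 4.33 to 8.09; limma adjusted p = 0.000303). Adgre1, the adhesion receptor that carries the classical macrophage antigen of mice, was at 7.43, 7.20 and 7.75 in the RG7112 tumours, against 5.92 and 5.85 in the vehicle tumours. The groups did not overlap here either, and replicate 3 was highest and replicate 2 lowest of the RG7112 tumours for both genes. Adgre1 rose by 1.58 ± 0.18 (SE), or 2.98-fold (95% interval 2.25 to 3.95; limma adjusted p = 0.00127). The call of Adgre1 was lost without vehicle replicate 4 (1.54, adjusted p = 0.0574). In RNA of whole tumours, more cells of a type and more RNA per cell cannot be told apart.

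**Figure D1:**
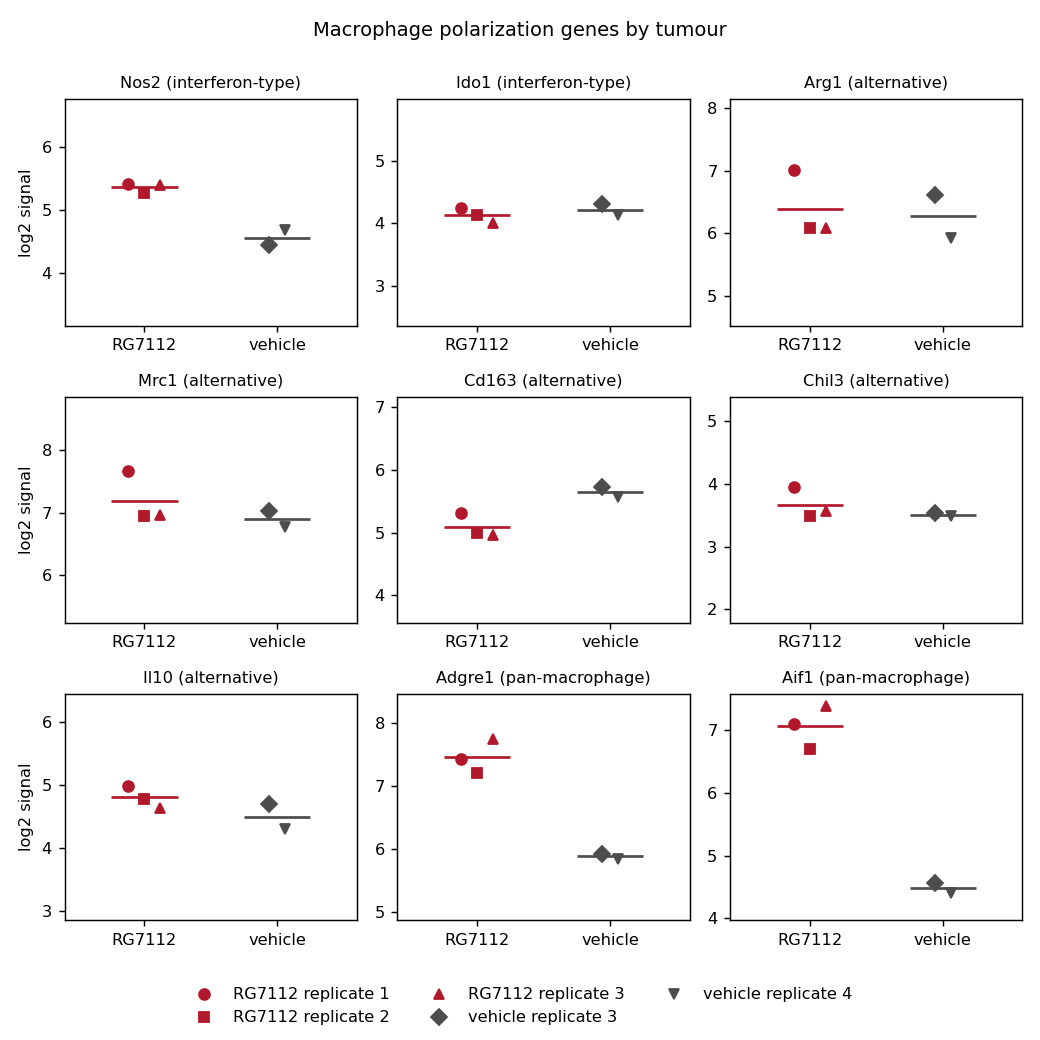
Log2 signal of the 9 measured members in each tumour, with 1 panel per gene and the same span on every vertical axis; symbols are single tumours and horizontal lines are group means (3 RG7112 tumours at left, 2 vehicle tumours at right). Aif1, Adgre1 and Nos2 lie higher in every RG7112 tumour, Cd163 lies lower in every RG7112 tumour, and the groups overlap in the other 5 genes. Of all probes, 10.8% lie higher and 14.0% lower in every RG7112 tumour.

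The interferon-type pair did not move together. Nos2 was at 5.41, 5.27 and 5.40 in the RG7112 tumours, against 4.45 and 4.67 in the vehicle tumours. All 3 RG7112 tumours were above both vehicle tumours, as in 10.8% of all probes, with little spread in either group. Nos2 rose by 0.80 ± 0.16 (SE), or 1.74-fold (95% interval 1.37 to 2.22; limma adjusted p = 0.0315), from means of 5.36 ± 0.07 (SD, n = 3) with RG7112 and 4.56 ± 0.16 (SD, n = 2) with vehicle. The call of Nos2 was lost whichever tumour was left out, with changes from 0.69 to 0.91 and adjusted p from 0.0689 to 0.441, and with an intensity trend in the variance (adjusted p = 0.0690). Ido1 was at 4.25, 4.14 and 4.01 in the RG7112 tumours, against 4.31 and 4.13 in the vehicle tumours. The groups overlapped, and the 2 highest values came from vehicle replicate 3 and RG7112 replicate 1. Ido1 differed by -0.09 ± 0.16 (SE; 95% interval -0.44 to 0.26; limma adjusted p = 0.934). Its mean signal stood at the 26.5th percentile of all probes and that of Nos2 at the 40.6th. The deposited values hold no detection calls, so it was not tested whether a probe of that brightness stood above background.

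**Figure D2:**
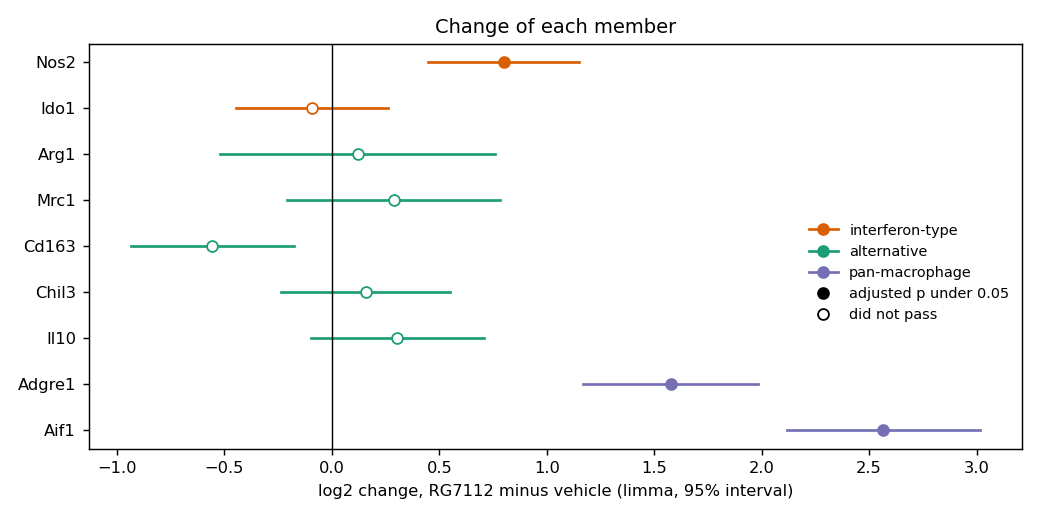
Log2 change of each measured member, RG7112 minus vehicle, with its 95% interval from limma (3 RG7112 and 2 vehicle tumours); filled points passed an adjusted p under 0.05. Aif1 (2.57), Adgre1 (1.58) and Nos2 (0.80) passed, while the intervals of Ido1, Arg1, Mrc1, Chil3 and Il10 include 0. The interval of Cd163 lies below 0 (-0.93 to -0.18), but the gene did not pass (limma adjusted p = 0.240).

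None of the 5 alternative activation genes passed limma's test, and 1 of them, Cd163, had an unadjusted p under 0.05. Cd163 was at 5.32, 4.99 and 4.95 in the RG7112 tumours, against 5.72 and 5.57 in the vehicle tumours. Every RG7112 tumour was below both vehicle tumours, a separation that 14.0% of all probes showed in that direction (and 10.8% in the other). Its change was -0.56 ± 0.17 (SE), or 0.680-fold (95% interval 0.523 to 0.884; unadjusted p = 0.00793 and adjusted p = 0.240 in limma). It kept its sign under every alternative, from -0.67 to -0.48, with adjusted p from 0.130 to 0.921.

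Arg1 was at 7.02, 6.09 and 6.08 in the RG7112 tumours, against 6.61 and 5.93 in the vehicle tumours. RG7112 replicate 1 and vehicle replicate 3 were high, and the other 3 tumours lay close together. Arg1 differed by 0.12 ± 0.29 (SE; 95% interval -0.52 to 0.76; limma adjusted p = 0.955). Its sign depended on single tumours, with -0.19 without RG7112 replicate 1 and -0.22 without vehicle replicate 4.

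Mrc1 was at 7.66, 6.95 and 6.96 in the RG7112 tumours, against 7.03 and 6.78 in the vehicle tumours. RG7112 replicate 1 stood above the rest, and the other RG7112 tumours lay between the vehicle tumours. Mrc1 differed by 0.29 ± 0.22 (SE; 95% interval -0.21 to 0.78; limma adjusted p = 0.809), and by 0.05 without RG7112 replicate 1. Il10 was at 5.00, 4.79 and 4.64 in the RG7112 tumours, against 4.70 and 4.31 in the vehicle tumours. The groups overlapped between RG7112 replicate 3 and vehicle replicate 3, and the difference was 0.30 ± 0.18 (SE; 95% interval -0.10 to 0.71; limma adjusted p = 0.708). Without vehicle replicate 4 it was 0.11.

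Chil3 was at 3.94, 3.48 and 3.57 in the RG7112 tumours, against 3.53 and 3.48 in the vehicle tumours. RG7112 replicate 1 stood above the other 4 tumours, which lay close together, and the probe's mean was dim, at the 13.6th percentile of all probes. Chil3 differed by 0.16 ± 0.18 (SE; 95% interval -0.24 to 0.55; limma adjusted p = 0.884), and by 0.02 without RG7112 replicate 1. Chil3 has close relatives in the mouse genome, such as Chil4, and sharing of signal between their probes was not tested.

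All 5 alternative genes were highest, among the RG7112 tumours, in replicate 1, and all 5 were higher in vehicle replicate 3 than in vehicle replicate 4. Over all probes, 36.0% were highest in replicate 1 of the RG7112 tumours and 49.2% were higher in vehicle replicate 3. Both interferon-type genes were also highest in RG7112 replicate 1, and Ido1 but not Nos2 was higher in vehicle replicate 3. For the general macrophage genes replicate 3 was the highest RG7112 tumour, and both were higher in vehicle replicate 3 than in vehicle replicate 4. Of 23 measured genes of a wider classical activation list, 11 were highest in RG7112 replicate 1 and 17 were higher in vehicle replicate 3. Over 28 measured genes of a wider alternative activation list, which holds the 5 members, 17 were highest in RG7112 replicate 1 and 19 were higher in vehicle replicate 3. Of 21 measured macrophage and monocyte markers, 13 were highest in RG7112 replicate 1 and 16 were higher in vehicle replicate 3.

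**Figure D3:**
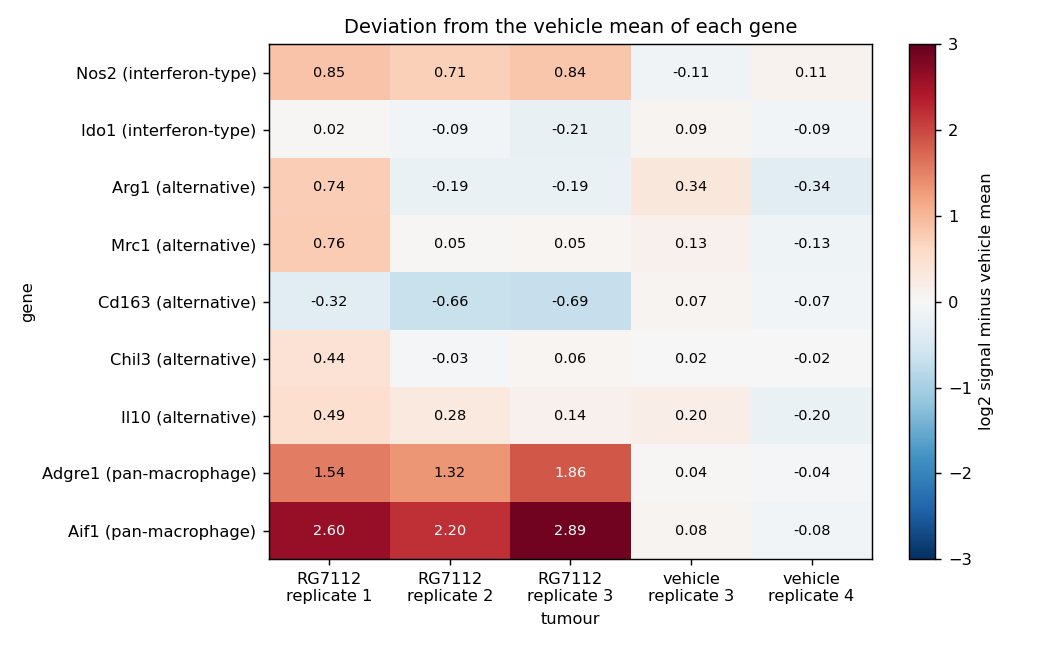
Deviation of each tumour's log2 signal from the vehicle mean of the same gene, with genes down the page and tumours across (RG7112 replicates 1 to 3, then vehicle replicates 3 and 4); red is above and blue below the vehicle mean. Arg1, Mrc1, Chil3 and Il10 are highest in RG7112 replicate 1 (0.74, 0.76, 0.44 and 0.49), while Aif1 and Adgre1 are high in all 3 RG7112 tumours and Cd163 is low in all 3.

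The balance of the 2 programmes was read from the mean log2 signal of each group of members, as a description without a test. The interferon-type mean was 4.83, 4.71 and 4.70 in the RG7112 tumours, against 4.38 and 4.40 in the vehicle tumours. Its difference of 0.35 ± 0.05 (SE) came from Nos2, as Ido1 differed by -0.09. SEs of these means, and of the gaps below, lack limma's moderation, so their size cannot be set against the SEs of single genes. The alternative mean was 5.79, 5.26 and 5.24 in the RG7112 tumours, against 5.52 and 5.21 in the vehicle tumours. That is a difference of 0.06 ± 0.26 (SE), well within the spread between tumours. The interferon-type mean minus the alternative mean was -0.96, -0.55 and -0.54 in the RG7112 tumours, against -1.14 and -0.81 in the vehicle tumours. The groups overlapped in this balance, which differed by 0.29 ± 0.22 (SE). This reading depended on the summary. With the median of each group, for which Cd163 stands for the alternative genes in every tumour, the alternative level differed by -0.56, and the balance was -0.49, -0.28 and -0.25 in the RG7112 tumours, against -1.34 and -1.16 in the vehicle tumours. The groups then did not overlap, with a difference of 0.91. Cd163 is the middle gene by the brightness of its probe, so this balance is the interferon-type mean minus Cd163 alone.

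The members were then compared with the general macrophage genes within each tumour. The mean of Aif1 and Adgre1 was 7.26, 6.95 and 7.56 in the RG7112 tumours, against 5.24 and 5.13 in the vehicle tumours, a difference of 2.07 ± 0.23 (SE). The changes of the other 7 members were all smaller. The change of Nos2 minus that of the mean was -1.27 ± 0.23 (SE), those of Mrc1 and Il10 were -1.78 ± 0.38 and -1.77 ± 0.33, and those of Arg1, Chil3 and Ido1 were -1.95 ± 0.51, -1.91 ± 0.27 and -2.16 ± 0.29. Cd163 had the largest gap, -2.63 ± 0.28. In each of these 7 comparisons the two-sided exact permutation test gave p = 0.1 (0.1 after adjustment over the 7), the smallest that 10 splits of 5 tumours allow. The macrophage mean itself separated the groups, so a gene that did not change at all would also reach this p. The test therefore shows nothing particular to the members, and the share of all probes that reach this p was not counted. Limma on the signals minus this mean called all 7 lower, but it also called 99.5% of all probes lower, so that count says nothing about the members.

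Aif1 and Adgre1 were among the larger changes of their cell type, so the gap depended on the genes chosen as macrophage level. Against the mean of 19 other macrophage and monocyte markers, which differed by 1.11, the gap of Nos2 was -0.31 ± 0.22 (SE), with a two-sided exact permutation p = 0.3 (the same after adjustment over the 7). The gaps of Cd163 and Ido1 were -1.67 ± 0.06 and -1.20 ± 0.07, each with p = 0.1 (adjusted p = 0.14), and that of Arg1 was -0.99 ± 0.32 with p = 0.2 (adjusted p = 0.233) in the same exact permutation test. Mrc1, Chil3 and Il10 had gaps of -0.83 ± 0.19, -0.96 ± 0.12 and -0.81 ± 0.06, each with an exact permutation p = 0.1. Limma on this scale called 6 of the 7 lower, all but Nos2, and 97.3% of all probes lower, so that count says nothing about the members. Here too, a gene that did not change at all would reach an exact permutation p = 0.1.

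The wider lists showed how the other genes of both programmes behaved. Of 23 measured genes of classical activation, 5 were called higher, 0 lower and 18 did not pass, with a median change of 0.41. Besides Nos2 these were Cxcl9 and Cxcl10, interferon-induced chemokines that attract T cells, Acod1, the enzyme that makes itaconate in activated macrophages, and Tnf, an inflammatory cytokine. Cxcl9 was at 10.9, 10.6 and 10.3 in the RG7112 tumours, against 9.14 and 8.54 in the vehicle tumours, and rose by 1.74 ± 0.22 (SE). Acod1 was at 6.15, 6.24 and 6.26 in the RG7112 tumours, against 4.96 and 4.60 in the vehicle tumours, and rose by 1.44 ± 0.17. The groups did not overlap in either gene, a separation that 10.8% of all probes showed in that direction. Cxcl10 rose by 1.65 ± 0.21 and Tnf by 1.43 ± 0.17, and the 4 genes beside Nos2 had limma adjusted p from 0.00122 to 0.0022. The calls of these 4 genes were lost without vehicle replicate 4, with changes then from 1.26 (Acod1) to 1.61 (Cxcl10). With all 5 tumours, 11 of the 23 were higher and 0 lower at an unadjusted p under 0.05 in limma. Of all 22203 probes, 1073 were higher and 901 lower at that threshold.

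Of 28 measured genes of alternative activation, 2 were called higher, 0 lower and 26 did not pass, with a median change of 0.13. At an unadjusted p under 0.05 in limma, 7 of the 28 were higher and 2 lower. Pparg, a nuclear receptor that controls lipid handling and takes part in alternative activation, was at 6.64, 6.48 and 6.45 in the RG7112 tumours, against 4.61 and 4.88 in the vehicle tumours. It rose by 1.78 ± 0.16 (SE), or 3.44-fold (limma adjusted p = 0.000369), and kept its call whichever tumour was left out. Tgm2, a transglutaminase that crosslinks proteins, rose by 0.82 ± 0.16 (limma adjusted p = 0.0323), a call lost after quantile normalization or when vehicle replicate 3 or 4 or RG7112 replicate 2 or 3 was left out. Retnla, a secreted protein induced by interleukin 4 in mice, was at 5.47, 3.88 and 5.29 in the RG7112 tumours, against 4.27 and 4.29 in the vehicle tumours. It was high in RG7112 replicates 1 and 3 and lowest of all in replicate 2, and its difference of 0.60 ± 0.37 did not pass (limma adjusted p = 0.729). Without RG7112 replicate 2, Retnla differed by 1.10 and passed (adjusted p = 0.0175), and without RG7112 replicate 1 it differed by 0.30. The difference between the 2 lists was not tested.

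**Figure D4:**
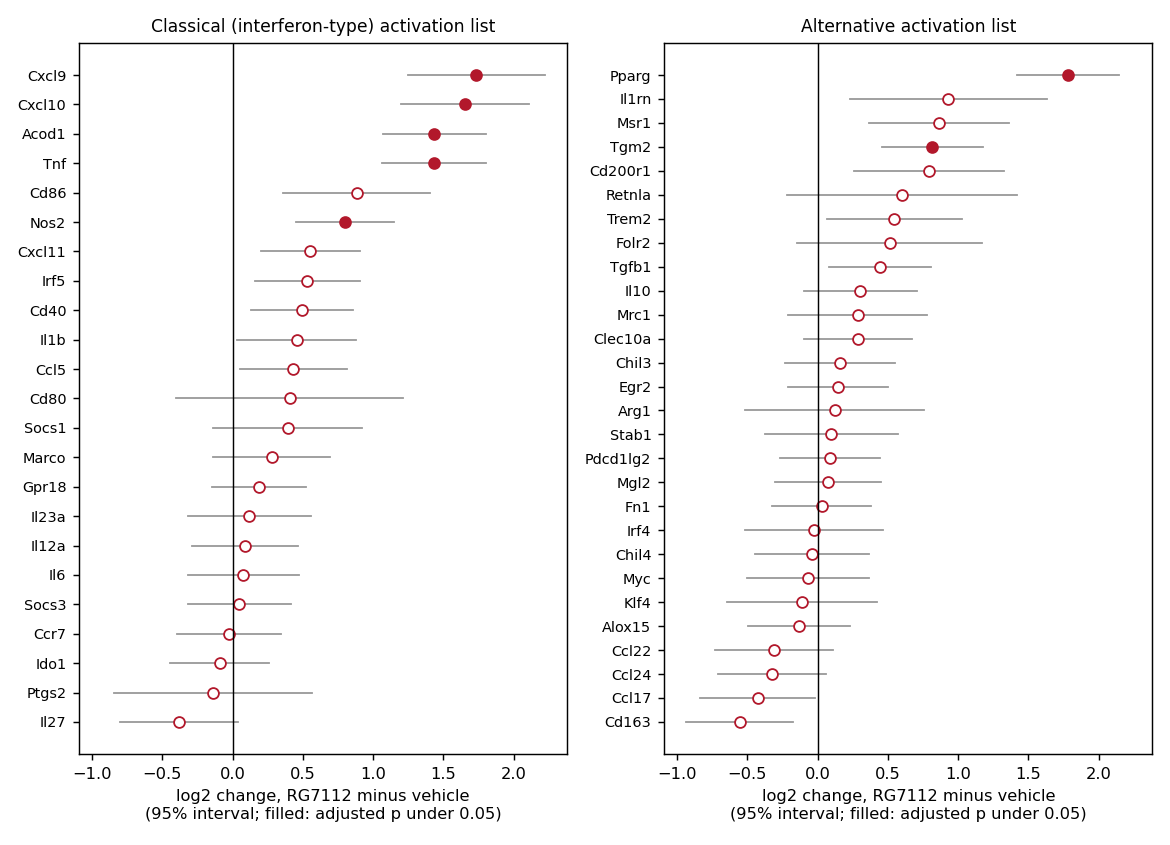
Log2 change, RG7112 minus vehicle, with its 95% interval from limma, for the 23 measured genes of the classical activation list (left) and the 28 of the alternative activation list (right), ordered by size; filled points passed an adjusted p under 0.05. Cxcl9, Cxcl10, Acod1, Tnf and Nos2 passed on the left, and Pparg and Tgm2 on the right.

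The 2 lists of signals that feed the programmes each held 1 gene called higher, against 1.42% of all probes. In each list, 3 of the 8 measured genes were higher at an unadjusted p under 0.05 in limma, against 1073 of all 22203 probes. Of 8 measured genes of interferon gamma signalling, 1 was called higher, with a median of 0.28. This was Irf1, a transcription factor induced by interferons, which rose by 1.22 ± 0.20 (SE; limma adjusted p = 0.0089, and 0.191 without vehicle replicate 4). Ifng itself was at 5.18, 4.57 and 4.29 in the RG7112 tumours, against 3.92 and 4.69 in the vehicle tumours, and the groups overlapped (0.38 ± 0.28, limma adjusted p = 0.790). Of 8 measured genes of interleukin 4, 13 and 10 signalling, 1 was called higher, with a median of 0.30. This was Il10ra, the ligand-binding chain of the interleukin 10 receptor, which rose by 0.92 ± 0.19 (limma adjusted p = 0.0333). Leaving out any tumour but RG7112 replicate 3 ended its call. Il4, Il13, Il4ra and Stat6, the alternative pathway from cytokine to transcription factor, differed by 0.06, -0.30, 0.41 and 0.02 and did not pass (limma adjusted p from 0.555 to 0.989). Leaving out a tumour moved Il13 between -0.50 and -0.017 and Il4ra between 0.24 and 0.58.

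Around the enzymes and cytokines among the members, little else passed. Of 14 measured genes of arginine and tryptophan metabolism, Nos2 was the 1 called higher, and the median change was 0.14. Arg2, the mitochondrial arginase, differed by -0.12 ± 0.16 and Kynu, the kynureninase downstream of Ido1, by 0.07 ± 0.15. Of 12 measured genes of the interleukin 12 and interleukin 10 families and their receptors, Il10ra was the 1 called, and the median was 0.16. Il12a and Il23a, which pair with Il12b to form interleukins 12 and 23, differed by 0.09 ± 0.17 and 0.12 ± 0.20, and both probes lay at or below the 22.0th percentile of brightness.

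Markers of cell types moved in the same tumours. Of 21 measured macrophage and monocyte markers, which include Aif1 and Adgre1, 13 were called higher and 0 lower, with a median change of 1.32, and the list mean ran from 7.89 to 8.15 in RG7112 tumours, against 6.65 to 6.91 in vehicle tumours. Csf1r, the receptor of the macrophage growth factor, rose by 1.08 ± 0.17, and Ly6c2, a marker of inflammatory monocytes, by 2.03 ± 0.26. Mpeg1, a pore-forming protein of phagocytes, rose by 1.90 ± 0.16 and Ms4a7, a membrane protein of macrophages, by 1.72 ± 0.26. Without vehicle replicate 4 limma called 2 of the 21, and Csf1r (adjusted p = 0.182), Ly6c2 (0.0666) and Ms4a7 (0.184) were among those lost. The call of Ms4a7 was also lost without vehicle replicate 3 (adjusted p = 0.0693).

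Other cell types also express some of the members: neutrophils Arg1, Chil3 and Nos2, dendritic cells Ido1, and lymphatic endothelium Mrc1. As a background for the counts that follow, 1073 of all 22203 probes were higher and 901 lower at an unadjusted p under 0.05 in limma. Of 10 measured neutrophil markers 0 were called by limma, with 1 at an unadjusted p under 0.05 (Csf3r, 0.62 ± 0.17), a median change of -0.02 and list means from 4.38 to 4.43 in RG7112 tumours, against 4.38 in both vehicle tumours. Camp differed by -0.36 ± 0.20, by -0.049 without vehicle replicate 3 and by -0.66 without vehicle replicate 4. Of 11 dendritic cell markers 0 were called, with 2 at an unadjusted p under 0.05 (Ly75, 0.87 ± 0.25, and Xcr1, 0.46 ± 0.18), a median of -0.0046 and list means from 4.84 to 5.13 in RG7112 tumours, against 4.87 to 4.89 in vehicle tumours. Of 11 endothelial markers 1 was called, Kdr (1.01 ± 0.19), with 4 higher at an unadjusted p under 0.05, a median of 0.28 and list means from 5.97 to 6.06 in RG7112 tumours, against 5.69 to 5.78 in vehicle tumours. Leaving out any tumour but RG7112 replicate 1 ended the call of Kdr. Lyve1, Prox1 and Flt4, the markers of lymphatic endothelium in this list, differed by -0.45, -0.15 and -0.03 and were not called. Of 12 markers of T and NK cells 1 was called, Cd8b1 (0.90 ± 0.18), a call lost whichever tumour was left out, with 7 higher at an unadjusted p under 0.05, a median of 0.64 and list means from 5.17 to 5.28 in RG7112 tumours, against 4.54 to 4.76 in vehicle tumours.

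Eosinophil and mast cell, melanocyte and fibroblast lists had 0 called of 10, 10 and 9 measured markers in limma, with 0, 2 and 2 at an unadjusted p under 0.05. Their medians were -0.12, 0.10 and 0.17. Epx and Siglecf (-0.29 ± 0.18 and -0.23 ± 0.15), Oca2 and Gpr143 (0.38 ± 0.16 and 0.37 ± 0.16), and Postn and Fap (0.74 ± 0.21 and 0.45 ± 0.16) had the smallest p-values of these lists. Epx differed by -0.54 without vehicle replicate 3 and by -0.035 without vehicle replicate 4. The melanocyte list, markers of the labelled tumour, had a mean of 11.2 in each RG7112 tumour, against 11.0 to 11.1 in vehicle tumours. The eosinophil and mast cell list ran from 4.11 to 4.21 in RG7112 tumours, against 4.19 to 4.21 in vehicle tumours, and the fibroblast list from 6.995 to 7.60 in RG7112 tumours, against 7.11 to 7.13 in vehicle tumours. The part of any of these cell types in the members' values was not tested.

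**Figure D5:**
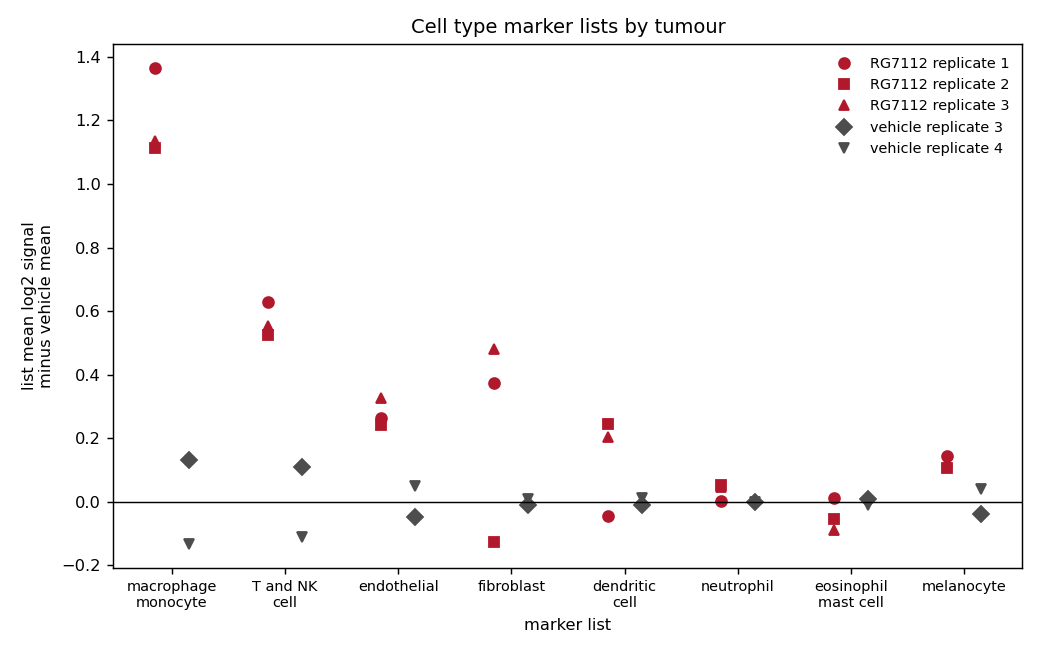
Mean log2 signal of 8 cell type marker lists in each tumour, minus the mean of the 2 vehicle tumours for that list; symbols are single tumours, RG7112 at left and vehicle at right of each list. Macrophage and monocyte markers stand highest in the RG7112 tumours, T and NK cell markers next, and neutrophil markers lie near 0 in all 5 tumours.

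Named genes whose pattern was most like a member were found from the root mean square difference of mean-centred log2 values over the 5 tumours, among 993 other named genes with a range of at least 1, for the members with such a range (Arg1, Adgre1 and Aif1). Closest to Aif1 were Glipr1, Trim30a and Pld4, at 0.21, 0.26 and 0.26, with changes of 2.33, 2.12 and 2.15. Closest to Adgre1 were Slc11a1, Batf2 and Casp1, at 0.09, 0.10 and 0.12, with changes of 1.54, 1.39 and 1.43, whose calls were each lost without vehicle replicate 4 and, for Batf2, without vehicle replicate 3. Closest to Arg1 were Tmem45a, Uprt and Inhba, at 0.09, 0.13 and 0.13, which shared its high values in RG7112 replicate 1 and vehicle replicate 3 and differed between groups by 0.05, -0.07 and 0.19 (limma adjusted p from 0.922 to 0.985).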

How the data were processed

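Whole-tumour RNA was measured on 1 Affymetrix Clariom S array per tumour, with RNA quality numbers above 9 per the labels' protocols. The deposited values are log2 signals per probe set, made with oligo and RMA per the submitters' processing notes (their versions and options: not given in the sources used here). All 5 columns of values were used. Probes took gene symbols from the platform annotation, with 1 symbol for 19572 of 22203 probes, several for none, and no name for 2631. The highest-mean probe stood for a gene. No coordinates go with the values, and those of promoters are RefSeq's (GRCm38.p6).

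The test of RG7112 minus vehicle was limma 3.58.1 in R 4.3.3, by lmFit and eBayes on 3 and 2 arrays, with 3 residual degrees of freedom and a prior of 7.92, and Benjamini-Hochberg adjustment over all probes. The fit was tested on simulated data with independent errors, drawn from the prior that limma itself had fitted. That test cannot show how the fit behaves with correlated genes or a single deviating tumour. SEs of single genes are limma's moderated ones. Those of group means and of gaps come from the pooled spread over tumours, without moderation. The number of arrays limits the precision.

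The members and lists were chosen with earlier results of these data known. The text names the members, per list up to 4 called genes with the largest change or otherwise the 2 with the smallest p, a fixed set of 18 genes of both programmes, and the 3 genes most like a member. Cd68 and Ass1, of that set, were not analysed here. Chil4, Lyve1, Prox1 and Flt4 were named outside this rule. Alternatives were array weights, an intensity trend or robust moderation in eBayes, cyclic loess or quantile normalization, a filter on dim probes (below the 40th percentile), a threshold of 0.10, other macrophage levels, medians or all probes per gene, and leaving out each tumour. Using all probes per gene could change nothing for the members, as each measured member had 1 probe.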

Additional observations from a re-analysis of the deposited data

How the results depend on the processing

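No paired analysis was made, as the labels name no pairs of tumours, and the groups share only 1 replicate number. Over 52 genes (the members and the genes named with them) and 609 values under alternatives, 549 kept sign and side of the threshold, 38 kept the sign but lost the call, 1 (Retnla without RG7112 replicate 2) gained a call and 21 changed sign. Leaving out a tumour gave 65 to 273 called probes (152 without vehicle replicate 3, 65 without vehicle replicate 4), 1 to 2 called members (1 without vehicle replicate 4), 0 to 4 called genes of classical activation, 1 to 2 of alternative activation and 2 to 15 macrophage and monocyte markers. The lone vehicle tumour is then assumed to vary like the RG7112 tumours. After quantile normalization 1 gene of alternative activation was called. The gaps to Aif1 and Adgre1 gave 7 calls in limma, and 4 without dim probes (where 4 of the members remained to be tested). On that scale the main fit called 99.5% of all probes lower, so these counts say nothing about the members. Exact permutation gave 0 calls. It was added after the data were seen and cannot pass with 10 splits. The interferon-type mean differed by 0.42 after quantile and 0.43 after cyclic loess normalization, and the cause was not tested. With medians, the alternative group differed by -0.56 and the balance by 0.91, since Cd163 is then the middle gene in every tumour. Leaving out a tumour moved the interferon-type difference from 0.31 to 0.37, the alternative one from -0.12 to 0.21, the general macrophage one from 1.92 to 2.23 and the balance from 0.13 to 0.46. Ido1, Chil3 and Il10 could not be tested without dim probes.

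Changes of sign were all in genes that did not pass. Leaving out a tumour gave ranges of -0.22 to 0.46 for Arg1 (below 0 without RG7112 replicate 1, -0.19, or vehicle replicate 4, -0.22), -0.013 to 0.76 for Ifng, -0.098 to 0.21 for Il4, -0.12 to 0.16 for Stat6, -0.28 to 0.052 for Arg2, -0.025 to 0.18 for Il12a, -0.014 to 0.30 for Il23a, -0.31 to 0.31 for Tmem45a, -0.41 to 0.14 for Uprt and -0.19 to 0.57 for Inhba. Array weights turned Stat6 (-0.0059) and Tmem45a (-0.016), and quantile (-0.026) and cyclic loess (-0.0065) normalization turned Stat6.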
